A study of Mus musculus with 10 samples.

Results

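Parathyroid hormone (PTH) and alendronate are both given against osteoporosis, and their effects on the endothelium of long bones were set directly against each other. The comparison used the 2 libraries of PTH-treated mice and the 2 libraries of alendronate-treated mice, 4 of the 10 libraries of the series, without the untreated ones. A cell was kept if it had 1180 to 6000 detected genes, under 25% of its unique molecular identifiers (UMIs, each marking 1 captured transcript) on mitochondrial genes, at least 2 UMIs of the endothelial genes Cdh5, Pecam1, Egfl7 and Kdr together, and no UMI of Ptprc, the pan-leukocyte gene. The lower limit on genes is the lowest value of any cell of PTH replicate 1, whose table held no cell below it. These rules kept 16094 of the 22312 cell barcodes of the 4 libraries, 7602 from PTH and 8492 from alendronate, and they would keep 34986 of 47466 over the whole series. Kept cells were split by rule into sinusoidal cells (at least 3 UMIs of Stab2, a hyaluronan scavenger receptor), arterial cells (at least 4 UMIs of Gja4, Gja5, Fbln5 and Stmn2 together and at most 1 of Stab2) and other cells, which met neither rule. Other cells hold capillaries, but also cells just below the class limits and cells with transcripts of blood cells, as given below. UMIs were summed per library over all kept cells and within each class, and every difference below is PTH minus alendronate, so a gene described as higher after PTH is by the same amount lower after alendronate.

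All 4 libraries came from femurs and tibias of female C57BL/6 mice of 12 weeks that carried the Cdh5-mTnG reporter, which labels endothelial membranes with tdTomato and endothelial nuclei with GFP. Mice of the PTH group received the active amino-terminal fragment of the hormone at 100 µg per kg each day by intraperitoneal injection, and mice of the alendronate group received alendronate at 2 mg per kg every other day. Bones were cleared of muscle and digested with collagenase, haematopoietic lineage cells were depleted, and double-positive cells were sorted and loaded on the 10x Chromium 3′ platform. The study ran the experiment once, on pooled animals for each group, and no source used here says whether the 2 libraries of a group came from separate pools. They may thus be technical repeats of 1 pool, so p-values here cover only the spread between libraries and not that between mice or experiments. The labels do not say which libraries were prepared together, so treatment and any difference in handling cannot be told apart.

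Intermittent PTH is an anabolic treatment: it acts through the receptor Pth1r on osteoblast lineage cells, raises cyclic AMP there and drives new bone formation. Alendronate is a bisphosphonate that binds to bone mineral, is taken up by osteoclasts and blocks farnesyl pyrophosphate synthase (Fdps) in the mevalonate pathway, which deprives small GTPases of their lipid anchors and stops resorption. The vessels of long bones comprise arteries and arterioles, capillaries of the metaphysis that lie beside osteoprogenitors (type H, high in Pecam1 and Emcn), the wide fenestrated sinusoids of the marrow (type L), and capillaries at sites of bone remodelling that the study names type R.

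The kept cells of the 4 libraries carried 10226634 and 24746596 UMIs for PTH and 19445647 and 19398995 UMIs for alendronate, with medians of 3873 to 4139 UMIs per cell. By class the medians were 4143 and 4110 after PTH against 4301 and 4404.5 after alendronate in sinusoidal cells. They were 4408 and 3824 against 3582 and 3666 in arterial cells, and 4018 and 3678.5 against 3574 and 3542 in other cells. PTH replicate 1 was the smallest library, with 2141 kept cells against 5461, 4294 and 4198 in the others. Any pair of libraries shared 18 to 41 barcodes among kept cells, at most 0.977% of a library. Sinusoidal and arterial cells were apart in the markers that their names call for, scored with genes the class rules do not use. Sinusoidal markers such as Vcam1, Dnase1l3 and Adamts5 summed to 10088 to 11433 counts per 1000000 UMIs of the sum (CPM) in sinusoidal cells and to 565 to 673 CPM in arterial cells. Arterial markers such as Sema3g, Igfbp3 and Sox17 summed to 5220 to 5945 CPM in arterial cells and to 433 to 626 CPM in sinusoidal cells. Transcripts of myeloid, lymphocyte and erythroid cells were present in all 4 libraries. In the sum over all kept cells, both alendronate libraries lay above both PTH libraries for each of these marker sums. Cells with at least 5 UMIs of 60 marker genes of other cell types, counted together, made up 5.14% and 3.70% of the PTH libraries and 8.36% and 8.53% of the alendronate libraries.

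The makeup of the sorted endothelium differed between the treatments. Sinusoidal cells made up 33.9% (31.9 to 35.9%) and 31.5% (30.2 to 32.7%) of the PTH libraries (95% Clopper-Pearson intervals, which cover counting error only) and 45.6% (44.1 to 47.1%) and 45.4% (43.9 to 46.9%) of the alendronate libraries. Both PTH libraries lay below both alendronate libraries, with a difference of -12.8 percentage points (p = 0.333, exact two-sided permutation test, the smallest p that 2 libraries against 2 allow). Other cells made up 45.4% (43.2 to 47.5%) and 44.7% (43.4 to 46%) after PTH and 33.4% (32 to 34.9%) and 33.1% (31.7 to 34.6%) after alendronate. Their difference was 11.8 percentage points, again with no overlap (exact permutation p = 0.333). Arterial cells made up 20.8% (19.1 to 22.6%) and 23.8% (22.7 to 25%) after PTH and 21% (19.8 to 22.3%) and 21.5% (20.3 to 22.8%) after alendronate. The arterial difference of 1.06 percentage points was within the spread of the PTH libraries (exact permutation p = 1), and it was -0.46 percentage points without PTH replicate 2. With every cell thinned to 2000 UMIs the sinusoidal difference was -7.69 percentage points, and with at least 500 genes per cell it was -7.20. The difference in other cells was 7.29 and 6.15 percentage points in these settings. With the limit of 500 genes the sinusoidal share stayed at 33.9% in PTH replicate 1, which has no cell to add, and was 26.3% in PTH replicate 2 and 37.6% and 37% in the alendronate libraries. Cells lay close to the class limits, with 104 to 246 cells per library at exactly 3 Stab2 UMIs and 123 to 342 cells at 2.

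Among other cells, scores of 2 capillary types lay apart in opposite directions. Each cell was thinned to 2000 UMIs, and cells with at least 2 UMIs of the metaphyseal genes Ramp3, Aplnr, Piezo2 and Lamb1 together made up 70.3% (67.3 to 73.2%) and 71.4% (69.5 to 73.2%) of other cells after PTH against 40.8% (38.3 to 43.4%) and 39.7% (37.1 to 42.3%) after alendronate. The groups did not overlap and differed by 30.6 percentage points (exact permutation p = 0.333). Metaphyseal UMIs were also more frequent after PTH in sinusoidal cells (23.3% and 20.8% against 10.4% and 12.5%) and in arterial cells (23.6% and 23.6% against 11% and 9.37%). Cells with at least 3 UMIs of the type R genes C1qtnf9, Aqp7, Timp4, Car4 and Fmo2 together made up 4.64% (3.40 to 6.16%) and 7.57% (6.54 to 8.70%) of other cells after PTH against 18.8% (16.8 to 21%) and 20.2% (18.1 to 22.4%) after alendronate. This difference was -13.4 percentage points (exact permutation p = 0.333). Sinusoidal cells, which should lack type R genes, gave 0 to 0.473% at the same depth, and arterial cells gave 3.37% and 3.91% after PTH and 9.21% and 8.47% after alendronate. No class gave such a background for the metaphyseal score. Both scores are ranges of a sum and not cell types, and their genes were chosen with earlier results of these data known. The study also shows Apln for metaphyseal and Cav1 for type R endothelium, and the scores leave both out. Apln was not called in any class and Cav1 was lower among other cells, as given below. The study reports Aplnr, a gene of the metaphyseal score, in type R as well as metaphyseal endothelium. With cells thinned to 1000 UMIs the differences were 30.6 and -8.44 percentage points.

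**Figure D1:**
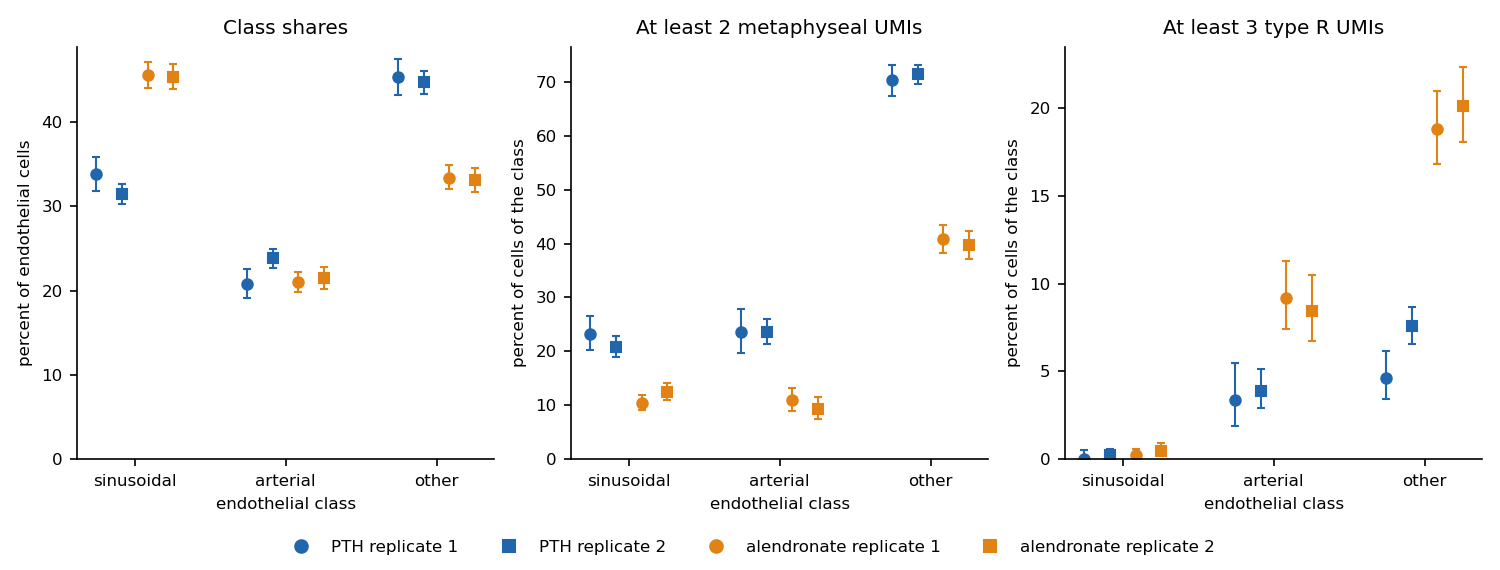
Left, percent of endothelial cells in the sinusoidal, arterial and other class for each library; middle and right, percent of cells of each class with at least 2 metaphyseal UMIs and at least 3 type R UMIs, each cell thinned to 2000 UMIs. Points are the 4 libraries and bars are 95% Clopper-Pearson intervals; among other cells the metaphyseal score was 70.3% and 71.4% after PTH against 40.8% and 39.7% after alendronate, and the type R score 4.64% and 7.57% against 18.8% and 20.2%.

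In all endothelial cells, 1756 of 14552 genes tested were higher after PTH (12.1%) and 1846 were lower (12.7%), at an edgeR adjusted p under 0.05. Within classes, 956 of 12593 genes were higher (7.59%) and 1011 lower (8.03%) in sinusoidal cells, 426 of 11136 higher (3.83%) and 539 lower (4.84%) in arterial cells, and 1001 of 12581 higher (7.96%) and 1101 lower (8.75%) in other cells. Most differences were small: over 2-fold, 271 genes were higher and 244 lower in all cells, 161 and 64 in sinusoidal cells, 100 and 97 in arterial cells, and 158 and 340 in other cells. The classes shared 196 genes that were higher in all 3 and 155 that were lower in all 3. Groups without overlap were common among all genes tested. Both PTH libraries lay above both alendronate libraries for 28.5% of genes in sinusoidal, 25.3% in arterial and 29.9% in other cells. They lay below both for 27.7%, 25.6% and 28.9%. In the sum over all cells a change in makeup and a change in level per cell cannot be told apart, so gene groups are described mainly by class. Class sums carry the same limit. The metaphyseal score differed within each class, and the type R score within other and arterial cells. Makeup within a class and level per cell were therefore not told apart for any gene below. Scaling to library totals without the TMM factors gave 2528 higher and 1322 lower genes in all cells, 1341 higher and 667 lower in sinusoidal cells, 568 higher and 423 lower in arterial cells and 1327 higher and 896 lower in other cells. Counts depended on each library: leaving out PTH replicate 1, PTH replicate 2, alendronate replicate 1 or alendronate replicate 2 gave 1928, 1661, 2039 and 1886 called genes in all cells, 1328, 1039, 962 and 1106 in sinusoidal cells, 1342, 1242, 394 and 441 in arterial cells, and 1467, 975, 2492 and 1858 in other cells. Each of these fits leaves 1 library in a group. List counts from them are given below without the share of all genes called in the same fit. Such counts can move with the totals just given, and whether they did was not tested. In sentences that follow, a gene is called higher or lower only where it passed the edgeR test, and values are CPM on the TMM scale.

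Most markers of metaphyseal capillaries were higher after PTH in each class. Of 12 members, 8 were higher in sinusoidal cells, 8 in arterial cells and 9 in other cells, and 0, 1 and 1 were lower, where all genes tested gave 7.59% higher and 8.03% lower in sinusoidal cells, 3.83% higher and 4.84% lower in arterial cells and 7.96% higher and 8.75% lower in other cells. Median log2 differences were 0.47, 0.71 and 0.69, beside medians of all genes within 0.01 of 0. The study derived its markers of this capillary type from libraries of untreated mice, and the list used here was drawn up with results of the present libraries known, so it is not independent evidence of its direction. The list also holds Ramp3, Aplnr, Piezo2 and Lamb1, the genes of the metaphyseal score. Ramp3, a receptor activity-modifying protein that lets the calcitonin receptor-like receptor bind adrenomedullin (GRCm38 chr11:6658521-6677475, plus strand), stood at 513 and 487 CPM in the PTH libraries and 223 and 194 CPM in the alendronate libraries among other cells. Each PTH library lay above both alendronate libraries, with a log2 difference of 1.26 ± 0.08 (SE, edgeR adjusted p = 1.2e-05). Ramp3 differed by 1.27 in sinusoidal and by 1.19 in arterial cells. Aplnr, the receptor of the angiogenic peptide apelin (GRCm38 chr2:85136225-85139923, plus strand), stood at 1280.3 and 1319 CPM in the PTH libraries and 574 and 536 CPM in the alendronate libraries among other cells. Its groups were well apart, by 1.23 ± 0.06 (SE, edgeR adjusted p = 5.09e-06), and it differed by 1.09 in sinusoidal and 1.26 in arterial cells. Piezo2, a mechanically gated cation channel, stood at 99.5 and 91.3 against 33.7 and 28.7 CPM in other cells and differed there by 1.61 ± 0.10 (SE, edgeR adjusted p = 1.22e-05). Its level was low in arterial cells (22.1 and 30.5 against 4.60 and 6.36 CPM), where the difference was 2.32.

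Metaphyseal markers were not uniform. Emcn, the endomucin gene that helps define type H capillaries, was higher by 0.40 in other and 0.48 in arterial cells, a much smaller difference than that of Aplnr. Ppap2a, a lipid phosphate phosphatase, was higher by 0.99 in other, 0.58 in sinusoidal and 0.66 in arterial cells. Apln, the ligand of Aplnr, was not called in any class, at 55.8 and 62.5 against 61.5 and 59.7 CPM among other cells (edgeR adjusted p = 0.887). Angpt2, which destabilises vessels by antagonising the receptor Tek, was lower in other cells at a log2 difference of -0.53 ± 0.12 (SE, edgeR adjusted p = 0.0173). Esm1, a proteoglycan of sprouting tip cells, was not called in any of the 3 classes. Angpt2 in other cells lost its call without PTH replicate 2 (log2 difference -0.46, edgeR adjusted p = 0.144).

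Most genes of the vascular basement membrane were higher after PTH in each class. Of 14 members, 8 were higher in sinusoidal, 9 in arterial and 9 in other cells, and 0, 1 and 0 were lower, beside 7.59% higher and 8.03% lower in sinusoidal cells, 3.83% higher and 4.84% lower in arterial cells and 7.96% higher and 8.75% lower in other cells over all genes. Among these members, Col4a1, Col4a2 and Lamb1 also belong to the metaphyseal list, so the counts of both lists are not independent. Col4a1, a chain of the collagen IV network (GRCm38 chr8:11198423-11312826, minus strand), stood at 1554 and 1620.2 CPM in the PTH libraries and 967 and 855 CPM in the alendronate libraries among other cells. The groups did not overlap, and the log2 difference was 0.80 ± 0.07 (SE, edgeR adjusted p = 7.04e-05). Its partner chain Col4a2 differed by 0.71 there, by 0.77 in arterial and by 0.43 in sinusoidal cells. Nid2, nidogen that links laminin to collagen IV, stood at 6.44 and 5.41 against 1.34 and 2.01 CPM in sinusoidal cells and differed by 1.77, the largest difference of the list there, and by 1.53 in arterial and 1.101 in other cells. Lamb1, a laminin chain, differed by 1.21, 0.88 and 0.67 in sinusoidal, arterial and other cells. Sparc, a matricellular protein that binds collagen, was higher by 0.84 in other cells, at 8402 and 8745 against 5255 and 4338 CPM. Fn1, fibronectin, went the other way in arterial cells (187 and 209 against 290.4 and 320.2 CPM, log2 difference -0.62 ± 0.08 SE, edgeR adjusted p = 0.000119).

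Several genes outside these lists were among those with the largest differences. Lrp4, a co-receptor that binds agrin and the Wnt inhibitor sclerostin (GRCm38 chr2:91457511-91513779, plus strand), stood at 101 and 99.2 CPM in the PTH libraries and 16.3 and 14.8 CPM in the alendronate libraries in arterial cells. Genes entered this ranking only if their groups did not overlap. The log2 difference of Lrp4 in arterial cells was 2.68 ± 0.12 (SE, edgeR adjusted p = 1.38e-08). Among other cells Lrp4 stood at 164 and 157 against 38.7 and 28.6 CPM and differed by 2.25. Lrrc55, an auxiliary subunit of calcium-activated potassium channels, stood at 56.7 and 58.4 against 11.3 and 11.7 CPM among other cells and differed by 2.33 ± 0.10 (SE, edgeR adjusted p = 2.58e-06). In sinusoidal cells the ranking by size gave Cdh13, a cadherin without a cytoplasmic tail that binds adiponectin, at 41.9 and 33.4 against 12 and 11.5 CPM (1.63 ± 0.13 SE, edgeR adjusted p = 4.69e-08), and Col18a1, the collagen from which endostatin is cut, at 74.7 and 70.9 against 30.5 and 28.4 CPM (1.30 ± 0.09 SE, edgeR adjusted p = 3.91e-09). Fgl2, a fibrinogen-like protein that can act as a prothrombinase, stood at 114 and 40.0 against 17.1 and 12.7 CPM in arterial cells (2.24 ± 0.38 SE, edgeR adjusted p = 0.00156). Cd34, the sialomucin ligand of selectins, was higher by 1.25 in sinusoidal, 0.65 in arterial and 0.60 in other cells. Plvap, which forms the diaphragms of fenestrae and caveolae, was higher by 0.66 in other, 0.52 in arterial and 0.24 in sinusoidal cells. Fgl2 in arterial cells was at 1.43 without PTH replicate 1 and 2.94 without PTH replicate 2 on the log2 scale.

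**Figure D2:**
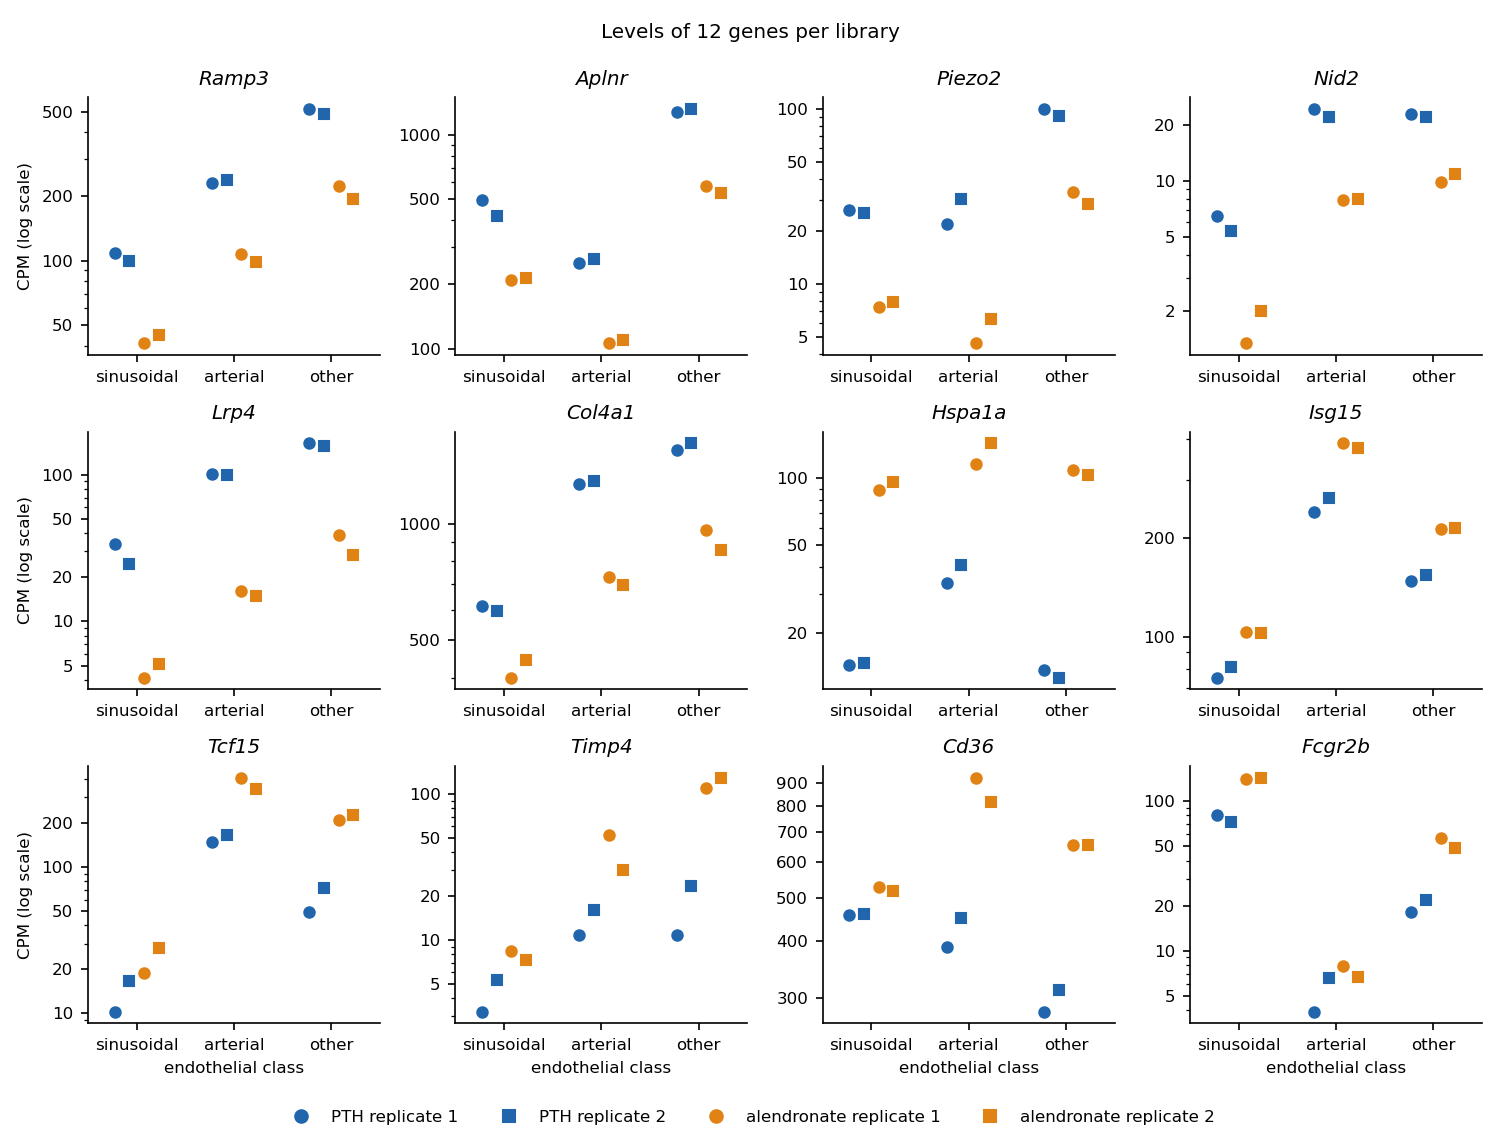
CPM per library (log axis) of 12 genes in sinusoidal, arterial and other cells; each point is 1 library, blue for PTH and orange for alendronate, with a circle for replicate 1 and a square for replicate 2. Ramp3, Aplnr, Piezo2, Nid2, Lrp4 and Col4a1 lay higher in both PTH libraries in all 3 classes, Hspa1a, Isg15 and Tcf15 lay lower in both, and Timp4, Cd36 and Fcgr2b lay lower in both PTH libraries among other cells.

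Type R markers were lower after PTH, and thus higher after alendronate, among other cells, where 8 of 8 were lower against 8.75% of all genes, with a median log2 difference of -1.23. In arterial cells 5 were lower, and in sinusoidal cells 2 were higher and 1 lower, beside 3.83% higher and 4.84% lower in arterial cells and 7.59% higher and 8.03% lower in sinusoidal cells over all genes. The study derived its type R markers from untreated mice too, and this list was also drawn up with results of the present libraries known. C1qtnf9, Aqp7, Timp4, Car4 and Fmo2, the genes of the type R score, are among its members. Timp4, a tissue inhibitor of metalloproteinases (GRCm38 chr6:115241892-115252205, minus strand), stood at 10.9 and 23.3 CPM in the PTH libraries and 111 and 129.7 CPM in the alendronate libraries among other cells. The alendronate libraries were several times higher than either PTH library, and the log2 difference was -2.70 ± 0.22 (SE, edgeR adjusted p = 5.45e-05). C1qtnf9, an adiponectin paralogue secreted by endothelium (GRCm38 chr14:60768134-60780869, plus strand), stood at 85 and 103 against 242 and 254 CPM and differed by -1.38 ± 0.09 (SE, edgeR adjusted p = 1.43e-05). Car4, a membrane-anchored carbonic anhydrase of capillaries, differed by -2.40 from low levels (4.26 and 7.29 against 34.4 and 32.2 CPM), and the glycerol channel Aqp7 by -1.87 (13.4 and 23 against 63.2 and 78.4 CPM). In arterial cells Timp4 differed by -1.51, Aqp7 by -1.88 and C1qtnf9 by -0.80. PTH replicate 1 was lower than PTH replicate 2 for the type R score and for Timp4, and both were below the alendronate libraries. Timp4 in other cells was at -3.48 without PTH replicate 2 on the log2 scale. Among type R markers, 3 were lower in arterial cells without alendronate replicate 1.

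Some genes by which capillaries take up fatty acids were lower after PTH in arterial and other cells. Among other cells 8 of 16 were lower after PTH and 1 was higher, and in arterial cells 7 of 15 were lower and 0 higher, beside 7.96% higher and 8.75% lower in other cells and 3.83% higher and 4.84% lower in arterial cells over all genes. Sinusoidal cells showed no common direction, with 4 higher and 3 lower (all genes 7.59% higher and 8.03% lower in sinusoidal cells). The type R score was also lower after PTH in arterial and other cells, and whether these genes followed cell makeup or level per cell was not tested. Cd36, the fatty acid translocase, stood at 279 and 311 CPM in the PTH libraries and 656 and 654 CPM in the alendronate libraries among other cells. It differed by -1.15 ± 0.07 (SE, edgeR adjusted p = 1.2e-05) there and by -1.04 in arterial cells, with no overlap between groups. The cytosolic fatty acid carriers Fabp4 and Fabp5 differed by -1.01 and -1.38 in other cells and by -0.91 and -1.12 in arterial cells. The transcription factors Tcf15 (GRCm38 chr2:152143561-152149097, plus strand) and Meox2, which together drive this programme in heart and muscle capillaries, differed by -1.82 and -1.04 in other cells. Lpl, lipoprotein lipase, was lower at a log2 difference of -1.30 ± 0.15 (SE, edgeR adjusted p = 0.000456) in other cells (22.8 and 34.8 against 68.7 and 79.1 CPM) but higher by 0.44 ± 0.06 (SE, edgeR adjusted p = 5.3e-05) in sinusoidal cells (136 and 156 against 111 and 107 CPM). Gpihbp1, which carries Lpl to the luminal face of capillaries, was higher in other cells (0.36 ± 0.07 SE, edgeR adjusted p = 0.00667). Of 9 genes of caveolae, 6 were lower among other cells, including Cav1 at -0.66, Ptrf (cavin 1) at -0.64 and Sdpr (cavin 2) at -0.75, and only Plvap was higher. Cav1 also belongs to the type R list. Gpihbp1 in other cells lost its call without PTH replicate 2 (log2 difference 0.30, edgeR adjusted p = 0.0655). Among caveolae and fenestral diaphragm genes, 3 were lower in other cells without PTH replicate 1. Among fatty acid and glycerol transport genes, 1 was lower in sinusoidal cells without alendronate replicate 2.

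Sinusoidal markers were lower after PTH in the sum over all cells, 12 of 12 beside 12.7% of all genes, where the share of sinusoidal cells was also lower. Within sinusoidal cells 6 were lower and 2 were higher, beside 7.59% higher and 8.03% lower in sinusoidal cells over all genes. Fcgr2b, the inhibitory IgG receptor by which sinusoids clear immune complexes (GRCm38 chr1:170958617-170976547, minus strand), stood at 80.2 and 72.4 CPM in the PTH libraries and 141 and 143 CPM in the alendronate libraries in sinusoidal cells. The difference was -0.92 ± 0.06 (SE, edgeR adjusted p = 6.12e-09), and each alendronate library was above both PTH libraries. Adamts5, an aggrecan-cleaving protease, stood at 1079.8 and 1127 against 1687 and 1623 CPM in sinusoidal cells and differed by -0.58 ± 0.04 (SE, edgeR adjusted p = 9.71e-09). Mrc1, the mannose receptor, differed by -0.32 and Dnase1l3, a secreted nuclease that clears cell-free DNA, by -0.27. Vcam1, the integrin ligand that holds marrow cells on sinusoids, was higher in sinusoidal cells after PTH (1339 and 1467 against 1186 and 1139 CPM, 0.27 ± 0.05 SE, edgeR adjusted p = 0.000274) and lower among other cells at a log2 difference of -0.58. Stab1, the paralogue of the Stab2 gene used in the rule, was not called in sinusoidal cells (535 and 587 against 561 and 561 CPM, edgeR adjusted p = 0.955). Of 12 scavenger and clearance genes, 4 were higher and 4 lower in sinusoidal cells, beside the same shares of all genes, and the higher ones were lysosomal: Ctsl, Ctsd, Lamp1 and Lamp2, with log2 differences of 0.25, 0.17, 0.19 and 0.16. Ptx3, a soluble pattern recognition molecule, was lower in sinusoidal cells at 19.6 and 19.9 against 48.4 and 50.3 CPM (-1.32 ± 0.10 SE, edgeR adjusted p = 1.3e-08). Ctsd in sinusoidal cells lost its call without PTH replicate 2, alendronate replicate 1 or alendronate replicate 2 (log2 difference 0.14 to 0.18, edgeR adjusted p = 0.0767 to 0.165). Lamp1 in sinusoidal cells lost its call without PTH replicate 1, alendronate replicate 1 or alendronate replicate 2 (log2 difference 0.14 to 0.20, edgeR adjusted p = 0.0513 to 0.128). Lamp2 in sinusoidal cells lost its call without PTH replicate 1, alendronate replicate 1 or alendronate replicate 2 (log2 difference 0.12 to 0.16, edgeR adjusted p = 0.114 to 0.249). Among scavenger and clearance genes, 1 was higher in sinusoidal cells without alendronate replicate 1 or alendronate replicate 2 and 2 without PTH replicate 1.

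Arterial markers did not move as a group in arterial cells, where 0 of 11 were higher and 3 lower after PTH, beside 3.83% and 4.84% of all genes. In sinusoidal cells, where their levels are low, 6 of 11 were higher and 0 lower, beside 7.59% and 8.03% of all genes. Some sinusoidal cells also met the arterial limit of 4 UMIs. They numbered 36 of 725 and 62 of 1718 after PTH and 49 of 1957 and 56 of 1906 after alendronate. Their part in these counts was not tested. Mgp, matrix Gla protein and an inhibitor of calcification, stood at 829 and 909 CPM in the PTH libraries and 1463 and 1599 CPM in the alendronate libraries in arterial cells. Its log2 difference was -0.81 ± 0.07 (SE, edgeR adjusted p = 4.49e-06), with the alendronate libraries above both PTH libraries. Eln, tropoelastin, was lower in arterial cells at a log2 difference of -0.61 ± 0.10 (SE, edgeR adjusted p = 0.00153) at 59 and 52.2 against 78 and 89.1 CPM, and Sema3g, a semaphorin of arterial endothelium, by -0.43 ± 0.08 (SE, edgeR adjusted p = 0.00229). Igfbp3, which carries insulin-like growth factors, was not called in arterial cells (1700.0 and 1602 against 1899 and 1595 CPM, edgeR adjusted p = 0.613) and was higher in sinusoidal cells by 0.86 ± 0.09 (SE, edgeR adjusted p = 9.03e-07). Sox17, the arterial transcription factor, was higher by 0.56 in sinusoidal cells. Mfap2, a microfibril protein of elastic fibres, was higher in each class, by 1.32, 0.97 and 1.39 in sinusoidal, arterial and other cells, at 49.6 and 57.6 against 20.5 and 20.8 CPM in the last. Col8a1, a short-chain collagen of vessel walls, was higher by 0.97 in other cells. Col8a1 in other cells lost its call without PTH replicate 2 (log2 difference 1.04, edgeR adjusted p = 0.0559). Eln in arterial cells lost its call without alendronate replicate 2 (log2 difference -0.50, edgeR adjusted p = 0.0827). Among arterial markers, 3 were higher in sinusoidal cells without PTH replicate 1 or alendronate replicate 1.

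Interferon-stimulated genes were mostly lower after PTH in arterial cells. In arterial cells 20 of 24 were lower and 0 higher, against 4.84% of all genes lower, with a median log2 difference of -0.57. In other cells 13 of 25 were lower and 1 higher, and in sinusoidal cells 10 of 25 were lower and 2 higher, beside 7.96% higher and 8.75% lower in other cells and 7.59% higher and 8.03% lower in sinusoidal cells over all genes. Members of this list are induced when the factor ISGF3 binds an interferon-stimulated response element, and the first 2 promoters printed below belong to the members Ifit3 and Isg15. The window runs from 250 bases before to 50 bases after the transcription start in RefSeq, and capitals mark matches to GAAA, any 2 bases and GAAA on either strand, which may overlap. Such a match was present in 13 of the 20 members with a promoter in the table (65%) and in 3.99% of 27025 genes, which is a description of letters and not of binding. The third promoter belongs to Hspa1a, a heat shock gene described further on, and capitals there mark GAANNTTC, paired units of the heat shock element, present in 8 of 9 heat shock members with a promoter (88.9%) and in 9.04% of all genes. The cyclic AMP response element TGACGTCA was also searched for. It was present in 1 of 20 PTH receptor and cyclic AMP pathway genes (5%), in 3 of 17 immediate early genes (17.6%) and in 2.03% of all genes. Among interferon-stimulated genes, 6 were lower in sinusoidal cells without PTH replicate 2.

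Ifit3 promoter, GRCm38.p6 chr19:34583279-34583578, plus strand: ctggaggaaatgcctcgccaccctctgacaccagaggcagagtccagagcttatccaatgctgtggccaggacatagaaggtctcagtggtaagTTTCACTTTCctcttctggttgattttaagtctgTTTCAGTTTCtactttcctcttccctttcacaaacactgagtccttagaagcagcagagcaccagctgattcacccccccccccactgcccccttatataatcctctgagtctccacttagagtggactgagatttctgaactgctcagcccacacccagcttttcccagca
Isg15 promoter, GRCm38.p6 chr4:156200769-156201068, minus strand: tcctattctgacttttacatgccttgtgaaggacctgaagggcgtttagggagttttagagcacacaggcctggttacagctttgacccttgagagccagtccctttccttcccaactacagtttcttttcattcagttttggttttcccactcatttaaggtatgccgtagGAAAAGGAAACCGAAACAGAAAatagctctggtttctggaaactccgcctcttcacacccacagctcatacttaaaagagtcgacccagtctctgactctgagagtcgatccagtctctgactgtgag
Hspa1a promoter, GRCm38.p6 chr17:34972107-34972406, minus strand: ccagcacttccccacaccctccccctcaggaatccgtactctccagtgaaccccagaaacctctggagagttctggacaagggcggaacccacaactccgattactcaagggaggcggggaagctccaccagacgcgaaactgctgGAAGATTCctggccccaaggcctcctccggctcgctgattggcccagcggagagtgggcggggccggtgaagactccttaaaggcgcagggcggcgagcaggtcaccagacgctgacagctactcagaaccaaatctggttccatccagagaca

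Ifit3, which helps to block translation of viral RNA, stood at 80.6 and 84.4 CPM in the PTH libraries and 140.3 and 148 CPM in the alendronate libraries in arterial cells. Both alendronate libraries were higher, and the log2 difference was -0.80 ± 0.08 (SE, edgeR adjusted p = 1.96e-05). Isg15, a ubiquitin-like modifier, stood at 241 and 265 against 388 and 375 CPM in arterial cells (-0.58 ± 0.07 SE, edgeR adjusted p = 7.67e-05) and differed by -0.38 in sinusoidal and -0.50 in other cells. Ifitm3, which blocks viral entry, differed by -0.36, -0.58 and -0.59 in the sinusoidal, arterial and other class, and Bst2, which tethers budding virus, by -0.40, -0.59 and -0.44. The transcription factor Irf7 was lower at a log2 difference of -0.75 in arterial and -0.71 in other cells. Rsad2, viperin, was higher by 0.68 ± 0.07 (SE, edgeR adjusted p = 0.000252) in other cells. In sinusoidal cells Rsad2 was higher by 0.52 ± 0.10 (SE, edgeR adjusted p = 0.00069) at 63.5 and 57.4 against 38 and 45.1 CPM, but its log2 difference was -0.055 with cells thinned to 2000 UMIs. Gbp2, a guanylate-binding protein, was higher in sinusoidal cells by 0.50 ± 0.09 (SE, edgeR adjusted p = 0.000434) at 49.8 and 53 against 36.9 and 36.6 CPM. Of 14 genes of MHC class I and its peptide loading, 11 were lower in arterial cells and 9 in other cells, among them H2-K1 by -0.55, H2-Q6 by -0.84 and the immunoproteasome subunit Psmb9 by -0.57 in arterial cells. In sinusoidal cells 3 were higher, H2-D1, H2-T23 and the transporter Tap2, and 3 were lower. The shares of all genes were 4.84% lower in arterial, 8.75% lower in other cells and 7.59% higher and 8.03% lower in sinusoidal cells. Among MHC class I and peptide loading genes, 5 were lower in arterial cells without alendronate replicate 1 and 6 without alendronate replicate 2, and 5 were lower in other cells without PTH replicate 2. Of the same MHC class I and peptide loading genes, 1 was lower in sinusoidal cells without PTH replicate 1, PTH replicate 2 or alendronate replicate 2.

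Genes of MHC class II were lower after PTH in arterial and other cells. All 6 members tested were lower in other cells and 6 of 6 in arterial cells, and 1 of 6 was lower in sinusoidal cells, beside 8.75%, 4.84% and 8.03% of all genes. Cd74, the invariant chain that guides class II molecules, stood at 66.8 and 33 CPM in the PTH libraries and 170.4 and 151 CPM in the alendronate libraries in arterial cells. The alendronate libraries were both above the PTH libraries, by -1.84 ± 0.19 (SE, edgeR adjusted p = 2.25e-05). H2-Aa, a class II alpha chain, stood at 31.6 and 19.6 against 100.5 and 80.8 CPM in arterial cells and differed by -1.93 ± 0.17 (SE, edgeR adjusted p = 5.74e-06), and at 8.95 and 8.81 against 21.2 and 60.5 CPM in other cells with a difference of -2.20. Class II genes are also expressed by B cells and myeloid cells. Myeloid markers summed to 82.8 and 24.2 against 79.3 and 84.1 CPM and lymphocyte markers to 7.49 and 1.38 against 5.82 and 19.5 CPM in arterial cells, where Cd3e was at 0, and to 647 and 274 against 1568 and 2500.3 CPM and 53.5 and 30.6 against 115 and 1300.4 CPM in other cells, PTH libraries first. When cells with at least 5 UMIs of other cell types were left out, 6 class II genes were lower in arterial cells, 6 in other cells and 0 in sinusoidal cells, and the log2 difference of Cd74 was -1.93 in arterial and -1.43 in other cells. Interferon-stimulated genes lower in that setting numbered 22 in arterial, 21 in other and 9 in sinusoidal cells, where 6.92%, 11.6% and 8.05% of all genes were lower. H2-Aa in other cells was at -1.26 without alendronate replicate 2 on the log2 scale.

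**Figure D3:**
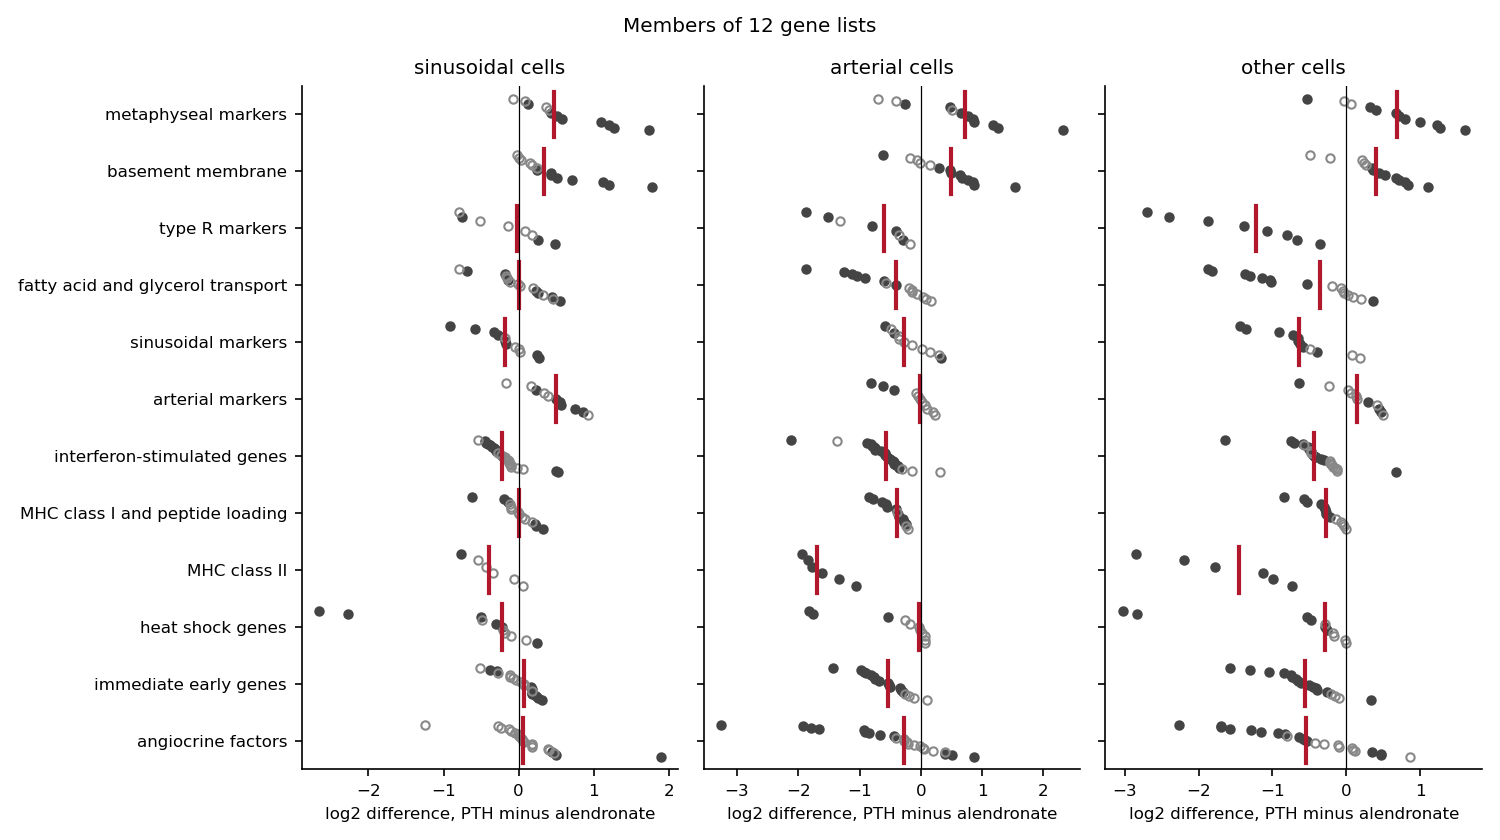
Log2 difference (PTH minus alendronate) of every tested member of 12 gene lists in sinusoidal, arterial and other cells; filled points passed an edgeR adjusted p under 0.05 and open points did not, and the short bar is the list's median. The medians of metaphyseal and basement membrane genes lie above 0 in all 3 classes. Those of interferon-stimulated genes, MHC class II genes and type R markers lie below 0 in all 3, though that of type R markers is only -0.0229 in sinusoidal cells.

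Among heat shock genes the largest differences were those of the inducible Hsp70 pair. Hspa1a (GRCm38 chr17:34969190-34972156, minus strand) stood at 14.3 and 14.7 CPM in the PTH libraries and 88.4 and 96.5 CPM in the alendronate libraries in sinusoidal cells, at 33.8 and 40.8 against 116 and 144 CPM in arterial cells and at 13.6 and 12.6 against 109.6 and 103 CPM in other cells, PTH libraries first. Both alendronate libraries were higher in each class, with log2 differences of -2.66 ± 0.10 (SE, edgeR adjusted p = 6.13e-13), -1.76 and -3.03 in the sinusoidal, arterial and other class. Its neighbour Hspa1b (GRCm38 chr17:34956436-34959238, minus strand) differed by -2.27, -1.82 and -2.83, but the 2 genes are near-identical and reads could be split between them in either way. Other chaperones differed much less: Hspb1, a small heat shock protein, by -0.31, -0.53 and -0.53, and Hspa8, the constitutive Hsc70, was higher in sinusoidal cells by 0.24. Over the list of 11, 5, 3 and 6 genes were lower in the sinusoidal, arterial and other class, where 8.03%, 4.84% and 8.75% of all genes were. Hspa1b in other cells was at -3.50 without PTH replicate 2 on the log2 scale. Among heat shock genes, 3 were lower in other cells without PTH replicate 2.

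Immediate early genes, which respond within minutes to growth factors, strain or tissue handling, were lower after PTH in arterial and other cells, 14 of 18 and 14 of 18. Sinusoidal cells had 7 of 19 higher and 2 lower, and all genes gave 7.59% higher and 8.03% lower in sinusoidal cells, 3.83% higher and 4.84% lower in arterial cells and 7.96% higher and 8.75% lower in other cells. Egr1, a zinc finger factor, stood at 36.4 and 47.2 CPM in the PTH libraries and 82.6 and 88.3 CPM in the alendronate libraries in arterial cells (-0.98 ± 0.11 SE, edgeR adjusted p = 6.83e-05). Jun, a subunit of AP-1, differed by -0.76 in arterial and -0.61 in other cells, and Atf3, a stress-induced repressor, by -1.43 and -1.30. Cyr61, a matricellular target of YAP, stood at 31.1 and 29.2 against 90.4 and 87.8 CPM among other cells (-1.57 ± 0.09 SE, edgeR adjusted p = 7.91e-06) and was not called in sinusoidal cells (75 and 58.4 against 51.3 and 62.8 CPM, edgeR adjusted p = 0.286). Dissociation of bone induces this group and heat shock genes, and whether it differed between the groups was not tested. Among immediate early genes, 9 were lower in arterial cells without alendronate replicate 2, and 2 were higher in sinusoidal cells without alendronate replicate 1 or alendronate replicate 2, 3 without PTH replicate 1 and 4 without PTH replicate 2.

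The pathways on which the drugs act were examined in the endothelium. Of the genes of the PTH receptor and cyclic AMP pathway, 4 of 21 were higher and 0 lower in sinusoidal cells, 2 and 2 of 20 in arterial cells, and 5 and 1 of 22 in other cells, beside 7.59% higher and 8.03% lower in sinusoidal cells, 3.83% higher and 4.84% lower in arterial cells and 7.96% higher and 8.75% lower in other cells over all genes. Rgs2, which shuts off Gq signalling and is induced by cyclic AMP (GRCm38 chr1:143999338-144004161, minus strand), stood at 117 and 120.5 CPM in the PTH libraries and 44.7 and 44 CPM in the alendronate libraries in arterial cells. No alendronate library reached the PTH range, and the log2 difference was 1.42 ± 0.09 (SE, edgeR adjusted p = 4.66e-07). It was higher in the other classes too, by 0.69 in sinusoidal and 0.78 in other cells. Pde4d, a phosphodiesterase that degrades cyclic AMP, was higher by 0.83, 1.13 and 0.71 in the 3 classes, at 27.3 and 27.6 against 11.4 and 13.8 CPM in arterial cells. Pth1r itself was barely detected, with 18 and 66 UMIs in other cells of the PTH libraries and 4 and 8 UMIs in those of the alendronate libraries, or 3.84 and 5.87 against 0.627 and 1.26 CPM. Osteoblast markers summed to 421 and 88.7 against 16.9 and 109 CPM in the same class, and their part in the Pth1r values was not tested. The orphan receptor Nr4a1, a target of CREB and an immediate early gene, went the opposite way, lower at a log2 difference of -0.90 in arterial and -0.66 in other cells. Among PTH receptor and cAMP pathway genes, 2 were higher in other cells without PTH replicate 2 and 3 without PTH replicate 1, and 2 were higher in sinusoidal cells without alendronate replicate 1 or alendronate replicate 2.

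The mevalonate and cholesterol pathway is the one in which bisphosphonates act. Of its 23 genes tested in all cells, 1 was higher and 6 were lower after PTH, and by class 1, 3 and 1 were lower in sinusoidal, arterial and other cells, and none was higher, beside 12.1% and 12.7% of all genes higher and lower in all cells and 7.59% higher and 8.03% lower in sinusoidal cells, 3.83% higher and 4.84% lower in arterial cells and 7.96% higher and 8.75% lower in other cells. Fdps, the enzyme that alendronate inhibits, stood at 37.7 and 36.6 CPM in the PTH libraries and 56.2 and 56.7 CPM in the alendronate libraries among other cells. Its level was higher in both alendronate libraries, with a log2 difference of -0.61 ± 0.08 (SE, edgeR adjusted p = 0.00107). In sinusoidal cells Fdps was not called (22.5 and 24.2 against 27.2 and 24.8 CPM, edgeR adjusted p = 0.452). Among 17 prenyl transferases and prenylated GTPases, 5 were lower in sinusoidal cells, none in arterial cells, and 2 were higher in other cells. Rasip1, a Rap1 effector needed for lumen formation, was higher in other cells by 0.35 ± 0.07 (SE, edgeR adjusted p = 0.0061). Among mevalonate and cholesterol synthesis genes, 1 was lower in all endothelial cells without PTH replicate 1, 2 without PTH replicate 2 and 3 without alendronate replicate 1 or alendronate replicate 2, and 1 was lower in arterial cells without alendronate replicate 1 or alendronate replicate 2. Among prenyl transferases and prenylated GTPases, 1 was lower in sinusoidal cells without alendronate replicate 1 and 3 without alendronate replicate 2.

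Pathways of vessel growth showed mixed and mostly small differences. In the Notch pathway 5 of 13 genes were higher and 0 lower in other cells, 4 of 13 higher and 1 lower in sinusoidal cells, and 1 of 14 higher and 2 lower in arterial cells. For comparison with the Notch, VEGF and BMP lists, the shares of all genes were 7.59% higher and 8.03% lower in sinusoidal cells, 3.83% higher and 4.84% lower in arterial cells and 7.96% higher and 8.75% lower in other cells. Over the lists of vessel genes, without those of other cell types, and the 3 classes, leaving out 1 library moved 23 of the 31 counts that stood at 2 genes by more than 1.5 times. The receptor Notch4 was higher by 0.56, the ligand Dll4 by 0.44 and the glycosyltransferases Lfng and Mfng, which tune ligand choice, by 0.52 and 0.50 in other cells. Nrarp, a feedback inhibitor of Notch, was lower in arterial cells at a log2 difference of -0.69 ± 0.07 (SE, edgeR adjusted p = 1.96e-05). In the VEGF and angiopoietin list 3 and 3 of 12 genes were higher and lower in sinusoidal, 2 and 2 of 13 in arterial and 3 and 2 of 13 in other cells. The arterial counts were 4 higher and 3 lower without PTH replicate 1, 2 and 0 without alendronate replicate 1 and 0 and 1 without alendronate replicate 2, and 1 was lower in other cells without PTH replicate 2. Nrp1, a co-receptor of VEGF, was higher by 0.33 in sinusoidal and 0.49 in other cells, and Tie1, a partner of the angiopoietin receptor, by 0.52 in other cells. Vegfa was lower in other cells at 3.20 and 3.91 against 9.73 and 8.37 CPM (-1.30 ± 0.25 SE, edgeR adjusted p = 0.00586). In the BMP and TGF beta list 5 and 3 of 18 genes were higher and lower in sinusoidal, 3 and 2 of 19 in arterial and 4 and 2 of 18 in other cells. The co-receptor Eng was higher by 0.23 in sinusoidal and 0.41 in other cells, and the ligand Bmp4 was lower in other cells at a log2 difference of -0.92 ± 0.18 (SE, edgeR adjusted p = 0.00694). Adm, adrenomedullin, the ligand of the receptor that Ramp3 modifies, was lower at a log2 difference of -1.32 ± 0.18 (SE, edgeR adjusted p = 0.000901) in other cells at 6.18 and 6.94 against 16.8 and 16.6 CPM, whereas its receptor Calcrl was not called there (180.2 and 165 against 173 and 167 CPM, edgeR adjusted p = 0.915). Among BMP and TGF beta pathway genes, 1 was higher in arterial cells without alendronate replicate 1 and 5 without PTH replicate 1, and 1 was higher in other cells without PTH replicate 2. Of the same BMP and TGF beta pathway genes, 2 were higher in sinusoidal cells without alendronate replicate 1 or alendronate replicate 2 and 3 without PTH replicate 1, and 1 was lower in sinusoidal cells without alendronate replicate 1 or alendronate replicate 2. Among Notch pathway genes, 1 was higher in sinusoidal cells without PTH replicate 1, alendronate replicate 1 or alendronate replicate 2. Among VEGF and angiopoietin pathway genes, 0 were lower in sinusoidal cells without alendronate replicate 1 or alendronate replicate 2.

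Factors that endothelium releases towards bone and marrow cells had both directions after PTH, with more members lower than higher among other cells, 12 against 3 of 24, and in arterial cells, 9 against 3 of 23. In sinusoidal cells 3 were higher and 0 lower of 21, and all genes gave 7.59% higher and 8.03% lower in sinusoidal cells, 3.83% higher and 4.84% lower in arterial cells and 7.96% higher and 8.75% lower in other cells. Cxcl12, the chemokine that retains haematopoietic cells, stood at 183 and 255 CPM in the PTH libraries and 523 and 461 CPM in the alendronate libraries among other cells. Its log2 difference was -1.16 ± 0.13 (SE, edgeR adjusted p = 0.000318) there, with no overlap. Kitl, stem cell factor, was lower in other cells at a log2 difference of -0.57, and Igf1, insulin-like growth factor 1, by -1.29 at 10.4 and 10.7 against 22.6 and 29.2 CPM. Ntf3, neurotrophin 3, was lower at a log2 difference of -2.26 in other cells at 3.20 and 3.56 against 15.7 and 17.4 CPM. Csf1, the growth factor of macrophages and osteoclasts, was lower in arterial cells at a log2 difference of -0.84 ± 0.14 (SE, edgeR adjusted p = 0.00141). Dkk2, a secreted Wnt antagonist, was higher in sinusoidal cells by 1.90 ± 0.38 (SE, edgeR adjusted p = 0.00139) at 7.61 and 4.03 against 1.57 and 1.23 CPM and in arterial cells by 0.86. Stromal markers such as Lepr and Adipoq, whose cells also make Cxcl12, Kitl and Igf1, summed to 109 and 76.1 against 103 and 173 CPM in other cells, PTH libraries first, with none at 0 in all libraries. The study reports high levels of secreted factors such as Cxcl12 in type R cells. The type R score was lower in other cells too, and its part in these differences was not tested. Without cells that carried at least 5 UMIs of other cell types the log2 difference of Cxcl12 in other cells was -1.30 (edgeR adjusted p = 1.51e-07) and that of Igf1 was -1.41 (edgeR adjusted p = 1.3e-05). Among angiocrine factors, 5 were lower in arterial cells without alendronate replicate 1 or alendronate replicate 2, and 1 was higher in other cells without PTH replicate 2. Of the same angiocrine factors, 1 was higher in sinusoidal cells without PTH replicate 1 or alendronate replicate 1.

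Binding proteins of insulin-like growth factors differed by class. Igfbp6 stood at 109 and 23.9 CPM in the PTH libraries and 18.7 and 5.57 CPM in the alendronate libraries in arterial cells (2.26 ± 0.58 SE, edgeR adjusted p = 0.0246), and Igfbp2 at 15.6 and 25.1 against 4.33 and 4.77 CPM (2.24 ± 0.27 SE, edgeR adjusted p = 9.71e-05). Neither overlapped between groups in arterial cells, where the lower PTH library lay close to the higher alendronate library for Igfbp6, while in sinusoidal cells Igfbp2 was lower at a log2 difference of -0.39 ± 0.06 (SE, edgeR adjusted p = 8.69e-05). Igfbp5 was lower in other cells at a log2 difference of -1.52, at 61.1 and 59.5 against 196 and 148 CPM, and Igfbp7, an abundant vascular member, was higher by 0.33, 0.60 and 0.40 in sinusoidal, arterial and other cells. Igfbp6 in arterial cells lost its call without alendronate replicate 2 (log2 difference 1.67, edgeR adjusted p = 0.153) and was at 0.98 without PTH replicate 1 and 3.17 without PTH replicate 2 and 3.41 without alendronate replicate 1 on the log2 scale. Igfbp7 in arterial cells lost its call without alendronate replicate 2 (log2 difference 0.53, edgeR adjusted p = 0.0655).

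Of the transcription factors of endothelial fate, the members higher and lower after PTH numbered 6 against 3 of 23 in sinusoidal, 3 against 2 of 23 in arterial and 8 against 3 of 23 in other cells, beside 7.59% and 8.03%, 3.83% and 4.84%, and 7.96% and 8.75% of all genes. Prdm1, the repressor Blimp1, stood at 6.15 and 5.41 CPM in the PTH libraries and 2.46 and 1.56 CPM in the alendronate libraries in sinusoidal cells (1.48 ± 0.32 SE, edgeR adjusted p = 0.00271) and was higher in arterial cells by 0.85. Sox4, a factor of progenitor states, was higher by 1.07 in arterial and 0.79 in other cells, and Meox1, a homeobox paralogue of Meox2, by 0.92 in sinusoidal cells. Dach1, which promotes coronary artery growth, was lower in other cells at a log2 difference of -1.16 ± 0.20 (SE, edgeR adjusted p = 0.00362). The study reports its transcripts as enriched in type R cells, and the type R score was lower in other cells too. Adhesion molecules numbered 7 higher and 0 lower in sinusoidal cells, 2 and 6 in arterial cells and 4 and 6 in other cells, of 16, 15 and 16. Jam3, a junctional molecule, was higher by 0.81 in sinusoidal and 0.85 in other cells, and Selp, P-selectin, was lower at a log2 difference of -0.68 in other cells. Of haemostasis genes, Plat, tissue plasminogen activator, was higher in sinusoidal cells at 16.4 and 12.8 against 4.71 and 5.70 CPM (1.43 ± 0.20 SE, edgeR adjusted p = 3.77e-05) and in other cells by 0.97, Vwf, von Willebrand factor, was lower in other cells at a log2 difference of -0.77, and Thbd, thrombomodulin, was lower at a log2 difference of -0.29 in sinusoidal and -0.50 in other cells. The whole haemostasis list gave 2 higher and 2 lower in sinusoidal, 1 and 2 in arterial and 4 and 5 in other cells. Prdm1 in arterial cells lost its call without alendronate replicate 1 (log2 difference 0.55, edgeR adjusted p = 0.201). Prdm1 in sinusoidal cells lost its call without alendronate replicate 2 (log2 difference 1.19, edgeR adjusted p = 0.0635). Among adhesion molecules, 0 were lower in arterial cells without alendronate replicate 1 and 1 without alendronate replicate 2, and 2 were higher in other cells without PTH replicate 2. Of the same adhesion molecules, 4 were higher in sinusoidal cells without alendronate replicate 1. Among endothelial fate factors, 1 was higher in arterial cells without alendronate replicate 1 and 6 without PTH replicate 1, and 4 were higher in other cells without PTH replicate 2. Of the same endothelial fate factors, 3 were higher in sinusoidal cells without PTH replicate 1 or alendronate replicate 2, and 0 were lower in sinusoidal cells without alendronate replicate 2 and 1 without PTH replicate 1 or alendronate replicate 1.

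Of 47 nuclear genes of oxidative phosphorylation, 22 were lower and 3 higher in sinusoidal cells, 1 and 0 in arterial cells and 8 and 0 in other cells, beside 7.59% higher and 8.03% lower in sinusoidal cells, 3.83% higher and 4.84% lower in arterial cells and 7.96% higher and 8.75% lower in other cells over all genes, with a median log2 difference of -0.16 in sinusoidal cells. Atp5e, a subunit of ATP synthase, was lower at a log2 difference of -0.40 ± 0.05 (SE, edgeR adjusted p = 5.91e-06) in sinusoidal cells. Of glycolysis and hypoxia genes 10 of 23 were lower and 1 higher in other cells, 8 of 21 lower and 0 higher in arterial cells and 4 of 23 lower and 1 higher in sinusoidal cells. Among those lower were Tpi1, triosephosphate isomerase, at a log2 difference of -0.45, and Bnip3, a mitophagy receptor induced by hypoxia, at -0.61 in other cells. Flow-responsive genes were mixed, with 2 higher and 2 lower in sinusoidal, 0 and 3 in arterial and 1 and 5 in other cells. Klf4, a flow-induced factor, was lower at a log2 difference of -0.42 in arterial and -0.64 in other cells. Cell cycle genes numbered 7 of 23 lower in other cells, among them Rrm2, a subunit of ribonucleotide reductase (42 and 20.6 against 55.2 and 67.4 CPM, -1.07 ± 0.24 SE, edgeR adjusted p = 0.0146), and 1 and 2 were higher in sinusoidal and arterial cells. This did not hold without cells that carried at least 5 UMIs of other cell types, where 0 of the cell cycle genes were lower and 17 higher in other cells beside 11.6% and 10.0% of all genes, and Rrm2 stood at 1.20 on the log2 scale (edgeR adjusted p = 0.00142). Thinned to 2000 UMIs, cells with an Mki67 UMI made up 1.78% ± 0.692 (SD, n = 2) of other cells after PTH and 1.62% ± 0.391 after alendronate (exact permutation p = 1). Of the circadian clock genes, 2 of 16 were lower and 1 higher in sinusoidal, 1 of 14 lower in arterial and 2 of 15 lower in other cells, Bhlhe40 among them in each class (-0.34, -0.92 and -0.59). Bhlhe40 in sinusoidal cells lost its call without PTH replicate 2 or alendronate replicate 1 (log2 difference -0.31 to -0.30, edgeR adjusted p = 0.0806 to 0.0887). Bnip3 in other cells lost its call without PTH replicate 1 (log2 difference -0.41, edgeR adjusted p = 0.107). Tpi1 in other cells lost its call without PTH replicate 2 (log2 difference -0.39, edgeR adjusted p = 0.0505). Among cell cycle genes, 2 were lower in other cells without PTH replicate 2 and 13 without alendronate replicate 1. Among flow-responsive genes, 1 was lower in arterial cells without alendronate replicate 1 or alendronate replicate 2, and 2 were lower in other cells without PTH replicate 1 and 3 without PTH replicate 2. Among glycolysis and hypoxia response genes, 0 were lower in arterial cells without alendronate replicate 1 and 2 without alendronate replicate 2, and 2 were lower in sinusoidal cells without PTH replicate 1, PTH replicate 2, alendronate replicate 1 or alendronate replicate 2. Among oxidative phosphorylation genes, 0 were lower in other cells without PTH replicate 1, 3 without PTH replicate 2 and 18 without alendronate replicate 1, and 0 were higher in sinusoidal cells without alendronate replicate 1 or alendronate replicate 2.

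Whether the contrast differed between sinusoidal and arterial cells was tested directly, as the arterial difference minus the sinusoidal difference within libraries. Of 12245 genes, 247 passed (2.02%), 80 with a higher and 167 with a lower value in arterial cells. This count was 600 without PTH replicate 1, 793 without PTH replicate 2, 150 without alendronate replicate 1 and 198 without alendronate replicate 2. Of 16 adhesion molecules tested, 6 passed, each with a lower value in arterial cells, and 3 did so without alendronate replicate 1. Sele, E-selectin, was at 3.03 and 1.72 against 8.13 and 7.16 CPM in arterial and 134 and 122 against 102 and 106 CPM in sinusoidal cells, PTH libraries first, and its contrast differed by -2.13 ± 0.33 (SE, edgeR adjusted p = 0.00774). Vcam1 was higher after PTH in sinusoidal cells, and its contrast differed by -0.75 ± 0.15 (SE, edgeR adjusted p = 0.0231). Of 6 class II genes 3 passed, each with a lower value in arterial cells (5 of 7 without PTH replicate 1), with differences between classes of -1.53 ± 0.29 (SE, edgeR adjusted p = 0.0193) for H2-Aa and -1.30 ± 0.18 (SE, edgeR adjusted p = 0.00418) for H2-Ab1. Of 16 fatty acid genes 5 passed, each with a lower value in arterial cells (9 without PTH replicate 1), with -0.86 for Cd36, -0.79 for Fabp4 and -0.99 for Fabp5. Of 18 immediate early genes 11 passed, each with a lower value in arterial cells (7 without alendronate replicate 2), with -1.095 for Cyr61, -0.74 for Jun, -0.65 for the phosphatase Dusp1 and -0.86 for Socs3, an inhibitor of cytokine signalling. Klf2, the flow-induced factor, was higher in sinusoidal cells by 0.28 and its contrast differed by -0.67 ± 0.08 (SE, edgeR adjusted p = 0.00176). In the other direction lay Igfbp2 (2.64 ± 0.25 SE, edgeR adjusted p = 0.000633), and Rgs2, which was higher after PTH in both classes and by more in arterial cells (0.73 ± 0.12 SE, edgeR adjusted p = 0.00904). Cdh13, higher in sinusoidal cells, was at 335 and 349 against 275 and 294 CPM in arterial cells, and its contrast differed by -1.36 ± 0.16 (SE, edgeR adjusted p = 0.00176).

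**Figure D4:**
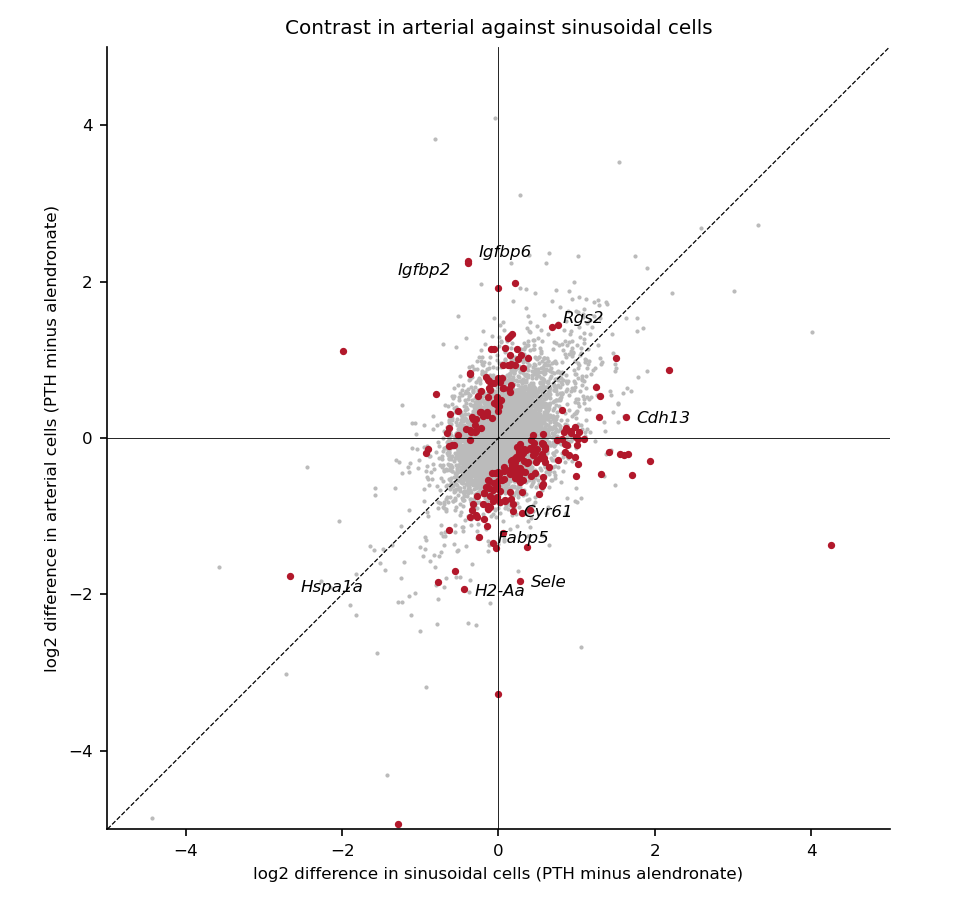
Log2 difference (PTH minus alendronate) in sinusoidal cells (horizontal) against arterial cells (vertical), 1 point per gene tested in both; red points are the genes whose contrast differed between the classes at an edgeR adjusted p under 0.05 (245 of the 247, since 2 were not tested in both classes), and 9 genes named in the text are labelled. The axes end at -5 and 5, which leaves 6 points outside. Both axes share the same libraries within a treatment; Sele, H2-Aa and Fabp5 lie below the diagonal and Igfbp2, Igfbp6 and Rgs2 above it.

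Transcripts of cells other than endothelium were among those with the largest differences, and several rested on 1 library. In other cells Igkc, an immunoglobulin light chain, stood at 0.852 and 0.178 CPM in the PTH libraries and 39.8 and 2427 CPM in the alendronate libraries, and Ighm, the heavy chain of IgM, at 2.98 and 4.80 against 29 and 1132 CPM. Igj, the joining chain of IgM, was at 0.213 and 0.178 against 8.31 and 350.3 CPM. The second alendronate library was far above the first for all 3, so these differences rest mainly on 1 library. Vpreb3, a gene of precursor B cells, was at 0.213 and 0.0890 against 33.9 and 59.2 CPM, high in both alendronate libraries. S100a8, a calcium-binding protein of neutrophils, stood at 2.98 and 4.18 against 382 and 64.9 CPM in other cells (-5.87 ± 0.81 SE, edgeR adjusted p = 0.00107). Haemoglobins were lower after PTH in arterial cells, where Hbb-bs stood at 6.94 and 16.1 against 135 and 815 CPM and its copy Hbb-bt at 6.50 and 4.29 against 11.4 and 186 CPM, highest in alendronate replicate 2. Hbb-bt was also lower in sinusoidal cells, at 14.3 and 21.9 against 36.6 and 67.8 CPM. The split between the near-identical Hba-a1 and Hba-a2 genes is uncertain. Erythroid markers summed to 217 and 53 against 315 and 1822 CPM in arterial, 284 and 352 against 479 and 594 CPM in sinusoidal and 489.9 and 307 against 1495 and 1413 CPM in other cells, PTH libraries first. S100a8 in other cells was at -4.08 without alendronate replicate 1 and -6.64 without alendronate replicate 2 on the log2 scale.

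Osteoblast transcripts had no common direction across the classes. Osteoblast markers summed to 23.4 and 1526 against 17.9 and 33.4 CPM in sinusoidal cells, to 47.1 and 21.6 against 48.9 and 52.1 CPM in arterial cells and to 421 and 88.7 against 16.9 and 109 CPM in other cells. PTH replicate 2 was high in sinusoidal and PTH replicate 1 in other cells, whereas in arterial cells both PTH libraries lay below the alendronate libraries. Bglap, osteocalcin, stood at 9.83 and 248 against 0.424 and 0.314 CPM in all cells, and its near-identical copy Bglap2 shares reads with it. Col1a1, a chain of collagen I, stood at 2.93 and 234 against 1.46 and 2.12 CPM in sinusoidal cells, high in PTH replicate 2 alone. Col2a1, the collagen of cartilage, stood at 1.92 and 122 against 0.471 and 0.316 CPM in other cells, with 3 and 2 UMIs in the alendronate libraries, and Car1, a carbonic anhydrase of red cells, at 171 and 11.2 against 6.23 and 4.77 CPM in arterial cells, high in PTH replicate 1 alone. Other lists differed less, megakaryocyte markers summing to 309 and 272 against 509 and 267 CPM and mural markers to 398 and 469 against 499 and 515 CPM in other cells, while osteoclast markers stayed at or below 12.9 CPM, myofibre markers at or below 14.9 CPM and Schwann cell markers at or below 8.99 CPM in every class. Lymphatic markers summed to 19.8 and 132 against 71.1 and 18.7 CPM in arterial cells, and chondrocyte markers to 12.1 and 166 against 4.15 and 15 CPM in other cells. With cells that carried at least 5 UMIs of other cell types left out, 2131 higher and 2224 lower genes were called in all cells, 947 higher and 982 lower in sinusoidal, 648 higher and 762 lower in arterial and 1180 higher and 1371 lower in other cells. In that setting 9 metaphyseal markers were higher and 8 type R markers lower in other cells, and 8, 9 and 9 basement membrane genes higher in sinusoidal, arterial and other cells. The shares of all genes in that setting were 10.0% higher and 11.6% lower in other cells, and 7.76% and 5.88% higher in sinusoidal and arterial cells.

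**Figure D5:**
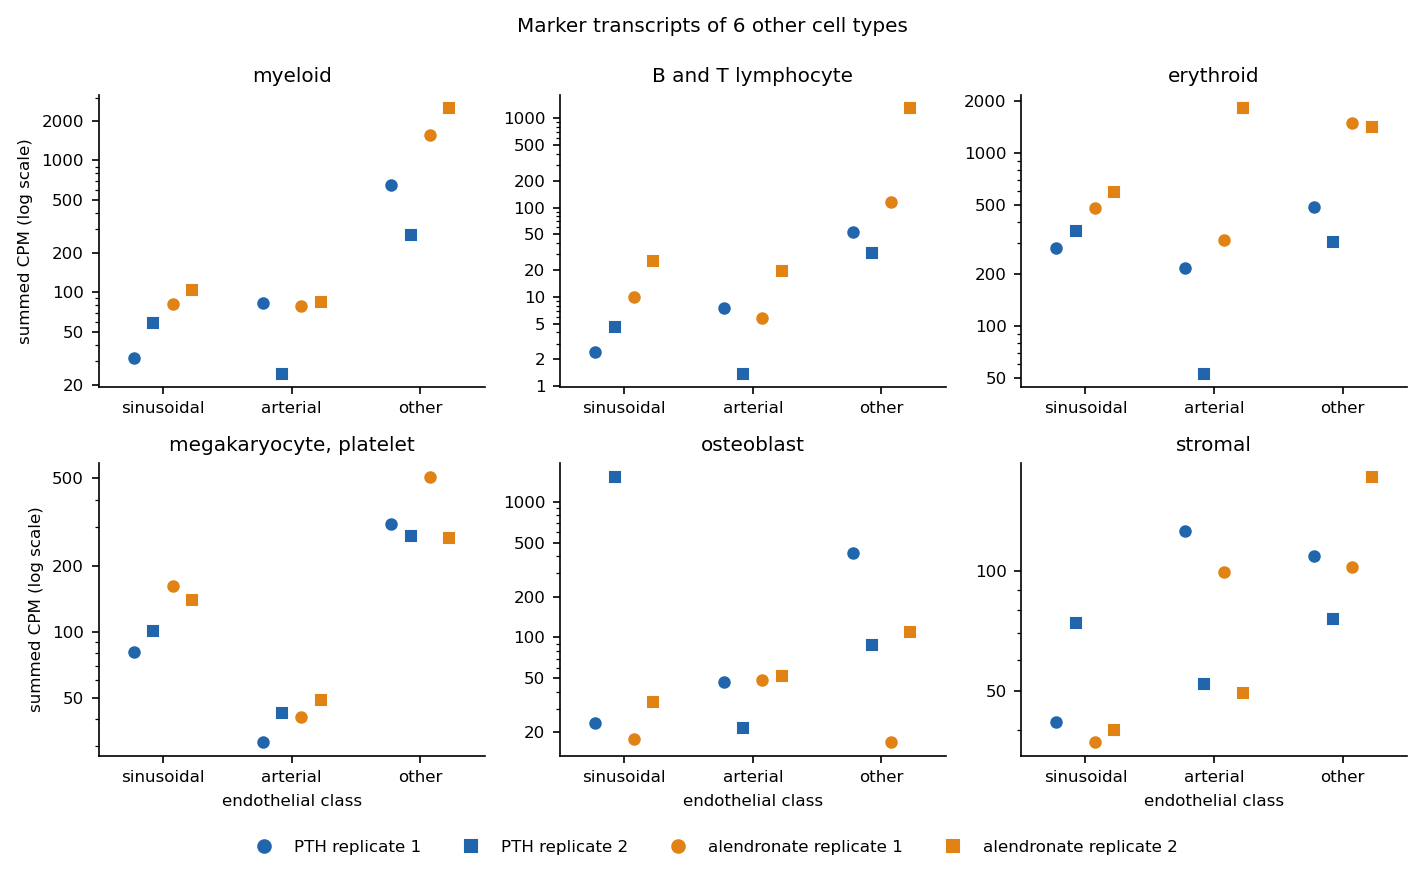
Summed CPM (log axis) of the marker lists of 6 cell types other than endothelium in sinusoidal, arterial and other cells; points are the 4 libraries. Myeloid, lymphocyte and erythroid transcripts were higher in both alendronate libraries among other cells, and osteoblast transcripts were high in PTH replicate 2 in sinusoidal cells.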

How the data were processed

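Single-cell 3′ RNA libraries of sorted bone endothelium were deposited by the authors as UMI counts, 1 table per library with a gene, a cell barcode and a count on each line, not normalised. Submitters' processing notes name UMI-tools 1.1.2, STAR 2.7.10a, featureCounts 2.0.3 (Subread) and the mm10 build, and the gene annotation and strand setting are not given in the sources used here. UMIs sharing a barcode and gene were thus collapsed to molecules before deposit, while reads shared by near-identical genes could be lost or split. Cells were kept and assigned to classes by the rules given in the report, and no doublets were removed in the main comparison. UMIs were summed per library and class, and genes that passed filterByExpr were tested with edgeR 4.0.16 (quasi-likelihood test, TMM factors, Benjamini-Hochberg adjustment over all genes tested, threshold 0.05) in R 4.3.3 with limma 3.58.1. The difference between sinusoidal and arterial cells was an interaction term with library as a block. CPM of single genes are on the TMM scale, and summed CPM of marker lists are UMIs of the list scaled to the total of the class sum. Shares were compared with exact two-sided permutation tests over libraries, whose smallest p is 0.333 with 2 libraries against 2. Cell handling used Python 3.11.15 with numpy 2.4.6, scipy 1.17.1, pandas 2.3.3 and scanpy 1.11.5, and plots matplotlib 3.10.9.

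The members, rules and gene lists were chosen with earlier results of these data known. Named genes were, in each sum, the 4 highest and 4 lowest log2 differences among called genes with a mean of at least 20 CPM whose groups did not overlap, leaving out genes of the rules, mitochondrial and ribosomal genes and unnamed gene models, together with up to 3 members of each of 31 vessel gene lists and 12 lists of other cell types with the largest called differences in a sum. Not every list member so chosen is described, and further members and genes were named after their values were seen. Alternatives were DESeq2 1.42.0, its size factors, library totals alone, no filter on low counts, the untreated libraries added to the fit, a replicate block, each library left out, at least 500 genes per cell, cells thinned to 2000 UMIs, stricter class thresholds (Stab2 at least 5, arterial UMIs at least 6) and removal of the cells with the highest Scrublet scores (0.8% of a library per 1000 cells). Crossed replicate numbers and the removal of cells with at least 5 UMIs of 60 genes of other cell types were added after seeing the data. The fits were tested on simulated counts with known changes. False calls made up 5.34% of calls in all cells, 5.74% in sinusoidal, 7.62% in arterial and 4.66% in other cells. They made up 3.03% for the difference between classes. Promoters came from RefSeq (GRCm38.p6), and gene positions from GENCODE M21 on the same build. Library sizes in UMIs are given in the report.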

Additional observations from a re-analysis of the deposited data

Results flagged for a closer look

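For 46 genes named in the report or in the observations, the contrast between PTH and alendronate differed between sinusoidal and arterial cells by a test of the difference itself (edgeR, adjusted p under 0.05 over 12245 genes), out of 247 such genes in all. Values below are the arterial log2 difference minus the sinusoidal log2 difference, so a negative value means that this difference was lower in arterial than in sinusoidal cells, whatever its sign in each class. Among fatty acid, caveolar and type R genes, the value was -0.86 for Cd36, -0.79 for Fabp4, -0.99 for Fabp5, -0.67 for Cav1, -0.41 for Ptrf, -0.38 for Sdpr and -0.90 for C1qtnf9. For genes of antigen presentation and the interferon response, the value was -1.53 for H2-Aa, -1.30 for H2-Ab1, -1.13 for Cd74, -0.55 for H2-K1, -0.66 for H2-Q6, -0.72 for Irf7 and -0.66 for Gbp2. Among immediate early, flow-induced and stress genes, the value was -1.095 for Cyr61, -0.74 for Jun, -0.68 for Egr1, -0.65 for Dusp1, -0.86 for Socs3, -0.67 for Klf2, -0.49 for Klf4, -0.59 for Bhlhe40 and 0.91 for Hspa1a. For adhesion molecules and secreted factors, the value was -2.13 for Sele, -0.75 for Vcam1, -0.61 for Cd34, -1.03 for Csf1, -0.66 for Kitl and -1.36 for Cdh13. Among matrix and arterial wall genes, the value was -1.18 for Eln, -0.76 for Col18a1 and -0.75 for Sema3g. For the binding proteins of insulin-like growth factors, the value was 2.64 for Igfbp2, 1.34 for Igfbp5, 2.37 for Igfbp6 and -0.96 for Igfbp3. Among transcription factors, signalling genes and regulators, the value was -0.85 for Meox1, 0.77 for Sox4, -0.84 for Nrarp, 0.73 for Rgs2, 0.67 for Bambi, 0.74 for Stc1, -0.96 for Kcne3 and -0.83 for Ednrb. Transcripts of other cell types gave -8.34 for Col1a1 and -3.70 for Hbb-bs. Of the 247 genes, 167 had a lower and 80 a higher value in arterial cells.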

How the results depend on the processing

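Of the 212 called differences named in the text, 168 kept their direction and their call in every setting in which they could be fitted. Over all 3336 recomputed values, 3254 kept both, 79 kept the direction and lost the call, and 3 changed sign. The 3 changes of sign were Rsad2 in sinusoidal cells, at -0.055 with cells thinned to 2000 UMIs, and Rrm2 in other cells, at 1.20 without cells that carried UMIs of other cell types, a setting chosen after seeing the data, and at 0.45 with thinned cells. DESeq2 called 1892 genes in all cells, 599 in sinusoidal, 369 in arterial and 1042 in other cells, and 103 genes whose contrast differed between sinusoidal and arterial cells, against 3602, 1967, 965, 2102 and 247 in edgeR. Without a filter on low counts, 642 genes were called in sinusoidal cells and 475 for the difference between classes, and with thinned cells 545 and 496 in sinusoidal and arterial cells. The difference between classes gave 464 genes with stricter class thresholds and 644 without cells that carried UMIs of other cell types. Leaving out 1 library gave 1661 to 2039 genes in all cells, 962 to 1328 in sinusoidal, 394 to 1342 in arterial and 975 to 2492 in other cells and 150 to 793 for the difference between classes, and an arterial share difference of -0.46 to 2.58 percentage points, negative without PTH replicate 2 alone. The cause of these changes was not tested, other than that leaving out a library or thinning leaves fewer libraries or UMIs.

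The replicate numbers did not pair the libraries, with correlations of same-numbered deviations of -0.181, -0.0369, 0.119 and -0.255 in all, sinusoidal, arterial and other cells. With the replicate number as a block, the called genes numbered 2039 higher and 2124 lower in all endothelial cells, 1100 higher and 1088 lower in sinusoidal cells, 456 higher and 562 lower in arterial cells and 890 higher and 991 lower in other cells. With crossed numbers, a pairing chosen after seeing the data, the block gave 2100 higher and 2186 lower in all endothelial cells, 1134 higher and 1208 lower in sinusoidal cells, 515 higher and 659 lower in arterial cells and 1443 higher and 1517 lower in other cells. The block changed no call among the 197 differences named. No block could be added to the difference between classes, since that fit already holds each library as a block, and stricter class thresholds leave the sum over all cells as it was. Depth limits low genes most: PTH replicate 1 held 10226634 UMIs, the fewest of the 4 libraries.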

Other observations

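Several genes with clear differences belong to none of the groups described in the report, and they were chosen after their values were seen. Rapgef4 (Epac2), an exchange factor for Rap1 that cyclic AMP activates, stood at 29.9 and 25.8 against 11.1 and 13.4 CPM in sinusoidal cells (1.15 ± 0.14 SE, edgeR adjusted p = 8.98e-06) and was higher by 1.00 in other cells. Kcne3, a potassium channel subunit, differed by 0.99 in sinusoidal and 1.36 in other cells. Ednrb, the endothelin receptor that endothelium uses to clear the peptide, stood at 47.7 and 36.6 against 16.4 and 24.7 CPM in sinusoidal cells (0.98 ± 0.15 SE, edgeR adjusted p = 9.37e-05). Sema3a, a guidance cue that also acts on osteoblasts and osteoclasts, lay lower after PTH in sinusoidal cells at 115 and 132 against 219 and 211 CPM (-0.78 ± 0.06 SE, edgeR adjusted p = 1.3e-08), and so did Stc1, stanniocalcin (-0.93). Bambi, a pseudoreceptor that dampens TGF beta signalling, was higher by 1.45 in arterial and 1.52 in other cells.

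Among members of the gene lists not named in the report, Stmn1, which destabilises microtubules, was higher in sinusoidal (0.56) and arterial cells (0.84), at 127 and 117 against 57.7 and 77.1 CPM in the latter. Col15a1, a collagen beside basement membranes, stood at 46.3 and 37.3 against 16.4 and 20.8 CPM in sinusoidal cells and differed by 1.12 ± 0.13 (SE, edgeR adjusted p = 3.33e-06). Txnip, which binds thioredoxin and limits glucose uptake, was lower in sinusoidal cells (948 and 969 against 1177 and 1154 CPM, -0.28), as was Ndrg1, a hypoxia-induced gene (-0.39 in sinusoidal and -0.34 in other cells). The ligand Dll1 was lower in arterial cells at 59.8 and 79.1 against 105 and 116 CPM (-0.62 ± 0.11 SE, edgeR adjusted p = 0.00202). Il6, interleukin 6, was low everywhere and lower after PTH in arterial cells, at 2.17 and 3.60 against 7.86 and 14 CPM (-1.79 ± 0.38 SE, edgeR adjusted p = 0.00711). Ifi27l2a, an interferon-induced gene outside the fixed list, stood at 19 and 29.2 against 129 and 125 CPM among other cells (-2.34 ± 0.14 SE, edgeR adjusted p = 1.2e-05) and differed by -2.27 in arterial cells. Il6 in arterial cells lost its call without alendronate replicate 2 (log2 difference -1.33, edgeR adjusted p = 0.218).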
